A study of Oncorhynchus mykiss with 60 samples.

Results

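Amino acid transporter genes were taken as the genes of the solute carrier families slc1, slc3, slc6, slc7, slc36, slc38 and slc43, matched by the trout symbol or, where the trout gene carries only an ID, by the symbol of its zebrafish ortholog. The rule found 36 of 23471 genes, 15 by their own symbol and 21 by the zebrafish symbol. Of these, 34 are carriers or the heavy chains that carriers need. The other 2 are copies of slc7a6os, a gene named for its place opposite slc7a6 and not itself a transporter. The families hold 3 slc1, 3 slc3, 5 slc6, 9 slc7, 2 slc36, 10 slc38 and 4 slc43 members. Copies that share a zebrafish symbol are told apart by their ID.

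The genes were followed in rainbow trout eggs and embryos cut into 5 sections lettered from A, the animal pole, down to E, the vegetal pole. Each section was sequenced as its own library. The groups are the 5 sections at 4 stages, timed in hours (hpf) or days (dpf) after fertilization as 0 hpf, 1 hpf, 1 dpf and 3 dpf. At 0 hpf the labels speak of both a non-fertilized egg and a fresh zygote, at 1 hpf of a single cell as well as early cleavage, at 1 dpf of an early blastula and at 3 dpf of a mid-blastula. No treatment or genotype is given. There were 3 replicates at 0 hpf, 1 dpf and 3 dpf and 2 at 1 hpf, where the replicate numbered 2 was not analysed here.

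Free amino acids cross membranes through carriers with overlapping substrates. Many carriers of the slc7 light chain group reach the cell surface bound to the slc3a2 heavy chain, and most of them exchange an amino acid inside the cell for another outside. Several slc36 and slc38 proteins sit instead on the lysosome, where they export amino acids or report them to the growth kinase complex mTORC1. In a fish egg the yolk protein is the amino acid store of the embryo, and in zebrafish the yolk syncytial layer later lies between the yolk and the cells of the blastoderm.

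Library totals ran from 1.09 to 14.46 M counts (median 4.6 M). Levels are given as CPM, counts scaled to the library total and adjusted by TMM, a between-library normalization. The same mass of RNA went into each library, so a CPM is a share of the counted RNA of a section and not an amount per embryo. Gene lengths were not used, so levels are compared between samples of a gene and not between genes. A gene without a count lay below 3 counts in that library, which is 0.192 to 2.98 CPM depending on depth and covers counting error only. Follicle cell and blood marker lists had 0 genes in the table, and of the liver and sperm lists 1 and 2 genes were present.

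**Figure D1:**
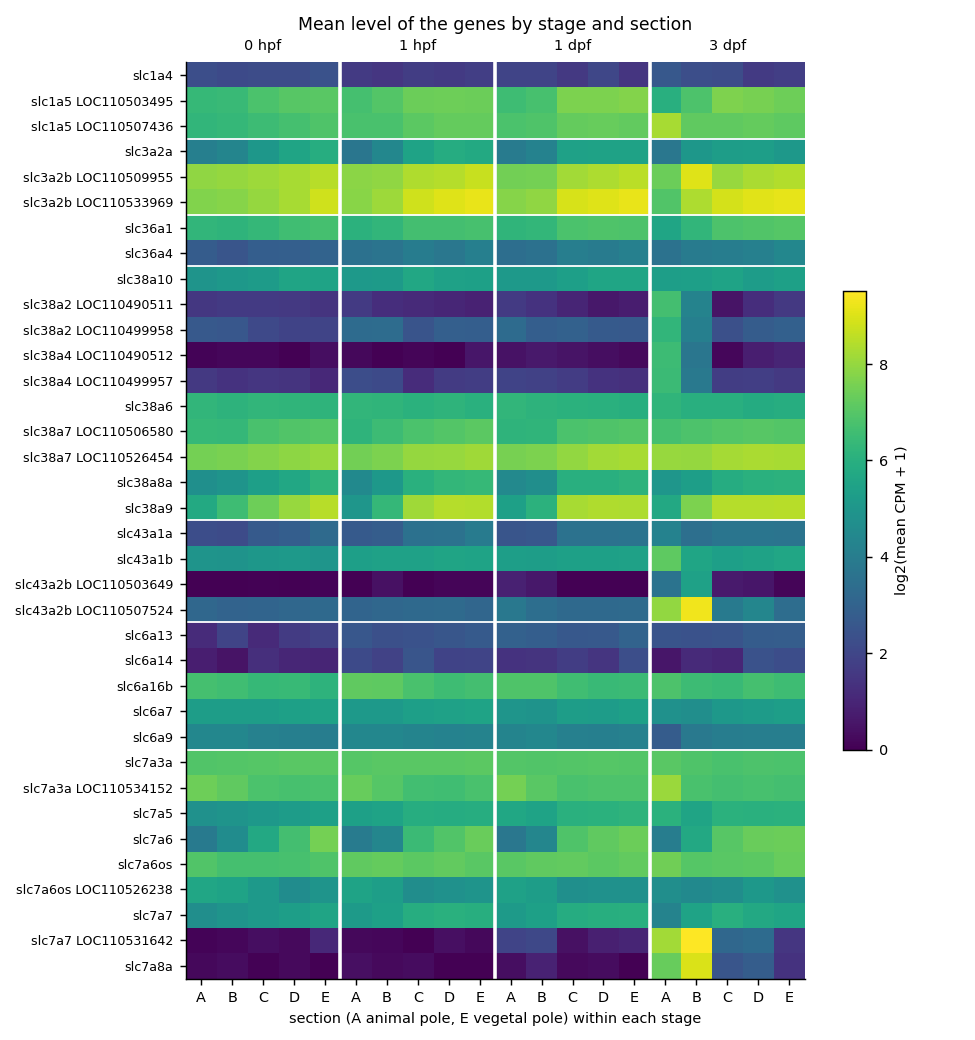
Mean level of the 36 genes, as log2(mean CPM + 1) on the colour scale, in sections A to E (columns) of each stage, with genes grouped by family (rows). Most genes look alike at 0 hpf, 1 hpf and 1 dpf. At 3 dpf slc7a7 LOC110531642, slc7a8a and the slc43a2b copies are brighter in A and B than in E, and brightest in B. The slc38a2 and slc38a4 copies are brightest in A at 3 dpf.

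Summed over the 34 carriers and heavy chains, the level in the 0 hpf replicates was 1800, 1678 and 1716 CPM in A and 2859, 2839 and 2899 CPM in E. At 1 dpf the sums were 1749, 1691 and 1913 CPM in A and 3171, 3086 and 3326 CPM in E. At 3 dpf the A sections held 3678, 3066 and 2757 CPM, against 2948, 3044 and 3260.5 CPM in E, so the groups overlapped only at 3 dpf among these stages. Section B of 3 dpf was the most uneven, with 5086, 5629 and 2656 CPM. Genes with high counts, such as slc38a9 and the slc3a2b copies, weigh most in these sums. By section mean, 21 members were highest in E and 7 in A at 0 hpf, and at 3 dpf 8 were highest in E and 13 in A. Lowest in A were 15 members at 0 hpf and 13 at 3 dpf. These counts were not set against all genes. They include members with almost no counts, such as slc43a2b LOC110503649 with 0.0619 CPM in E at 0 hpf.

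Section A was compared with section E within each stage, with edgeR's quasi-likelihood test and Benjamini-Hochberg adjustment at 0.05 over all genes. At 0 hpf 20 of the 32 members that passed the filter on low counts were called, 5 higher and 15 lower in A. The background was high: 64.0% of all tested genes were called, 32.0% higher and 32.0% lower, so the share called is not a result about these genes. At 1 hpf 17 of 32 were called, 2 higher and 15 lower (52.5% of all genes, 27.6% higher and 24.9% lower). At 1 dpf 25 of 33 were called, 7 higher and 18 lower (63.4% of all genes, 32.9% higher and 30.5% lower). At 3 dpf all 36 were tested and 24 were called, 11 higher and 13 lower (72.4% of all genes, 38.1% higher and 34.3% lower). The median log2 difference over the tested members was -0.46, -0.36, -0.39 and -0.02 at the 4 stages, beside -0.01, 0.04, 0.05 and 0.07 over all tested genes. Scaling by library size alone moved the A minus E values of all genes by a median of 0.19, 0.2, 0.3 and -0.05. The members then split 5 higher and 8 lower at 1 hpf and 11 higher and 12 lower at 1 dpf. All genes then split 7490 higher and 3935 lower at 1 hpf and 9659 higher and 4620 lower at 1 dpf. The share of calls that were higher was thus 38.5% and 47.8% for members, beside 65.6% and 67.6% for all genes. Testing all 5 sections together called 20, 16, 21 and 22 members at the 4 stages, against 56.1%, 46.1%, 62.4% and 69.8% of all genes.

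**Figure D2:**
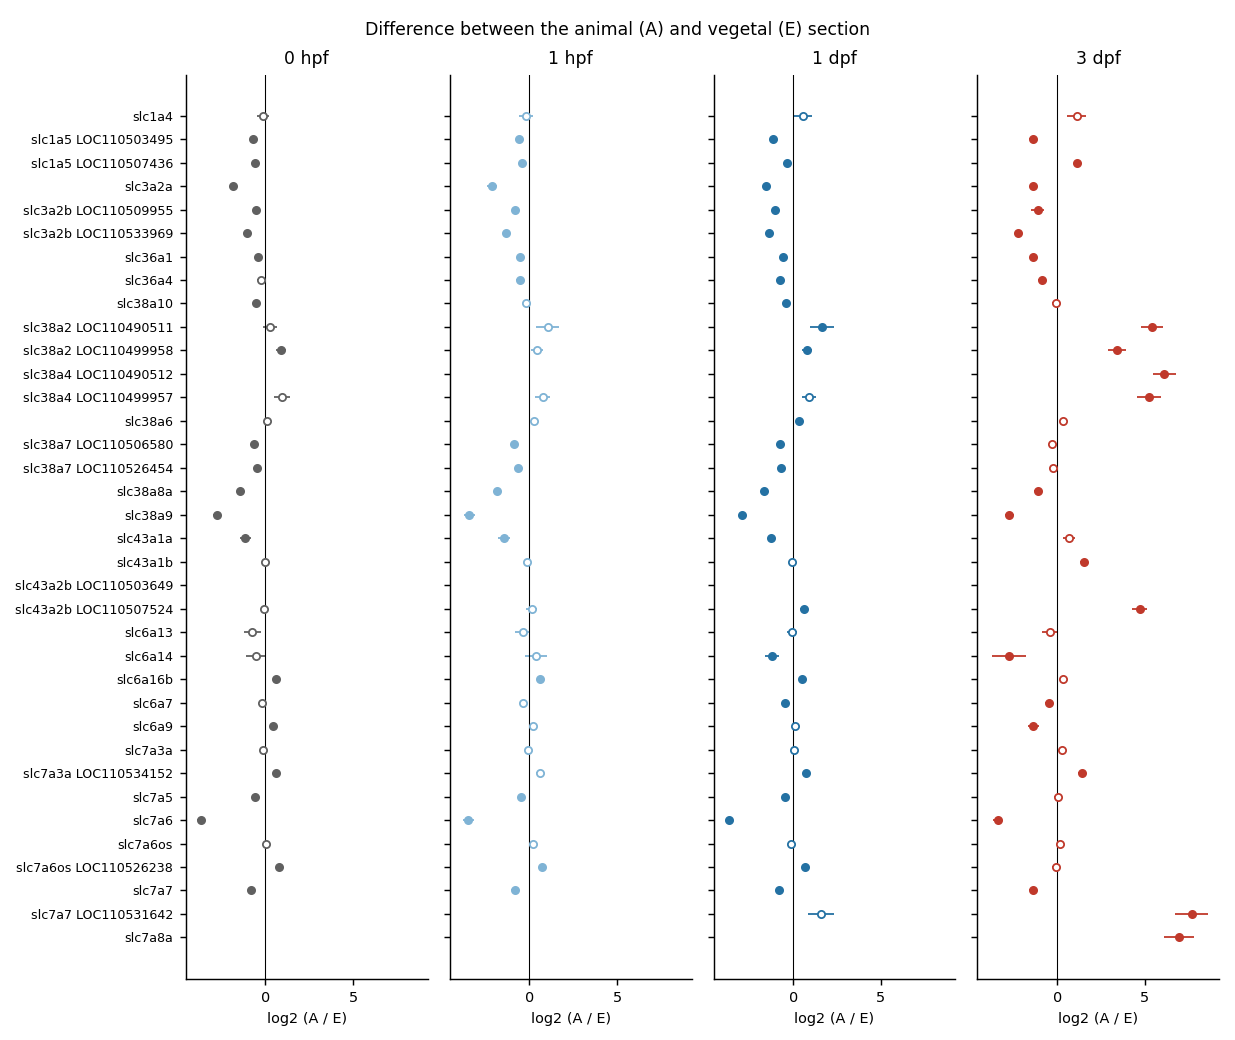
Log2 difference between section A and section E of each gene at the 4 stages, with bars of 1 standard error; filled points passed an adjusted p of 0.05 and open points did not. Genes below the count filter and the 3 dpf value of slc43a2b LOC110503649, which had 1 count in E, are not drawn. slc7a6 and slc38a9 sit far to the left at every stage, and the slc7a7 LOC110531642, slc7a8a, slc38a2, slc38a4 and slc43a2b points sit far to the right at 3 dpf.

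All 3 heavy chain genes were lower in A than in E at every stage. The heavy chain slc3a2 carries many of the slc7 light chains to the plasma membrane. The copy slc3a2b LOC110533969 had the highest mean level of the 36 genes over all libraries, 376 CPM, followed by slc3a2b LOC110509955 at 296 CPM. Gene lengths were not used, so this is an order of counts and not of transcript numbers.

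At 0 hpf slc3a2b LOC110533969 stood at 197, 244 and 189 CPM in A and 379.5, 518 and 457 CPM in E (log2 -1.08, SE 0.1, adjusted p = 1.31e-07). At 3 dpf it stood at 143, 105 and 116 CPM in A and 550.5, 583 and 565 CPM in E (log2 -2.22, SE 0.16, adjusted p = 6.16e-09). The A and E values did not overlap at either stage. The difference was also called at 1 hpf (-1.33) and 1 dpf (-1.37).

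The other slc3a2b copy, LOC110509955, had 264, 225 and 233 CPM in A and 344, 329.9 and 389 CPM in E at 0 hpf (log2 -0.54, SE 0.1, adjusted p = 0.00024). At 3 dpf it had 242, 144 and 102 CPM in A and 303, 327 and 390.5 CPM in E (log2 -1.12, SE 0.36, adjusted p = 0.0111). Its 1 hpf difference (-0.82) was called, but not without replicate 1 (-0.85) or replicate 3 (-0.91). Its highest 3 dpf values were in section B, at 627.5, 764 and 181 CPM, where replicate 3 was far below the others. The third heavy chain gene, slc3a2a, had 14.8, 18.7 and 15.1 CPM in A and 51.2, 67.2 and 59.6 CPM in E at 0 hpf (log2 -1.86, SE 0.14, adjusted p = 1.03e-08). At 3 dpf its A sections had 9.88, 12.7 and 15.0 CPM and its E sections 30.0, 22.6 and 46.2 CPM (-1.37, SE 0.2, adjusted p = 1.54e-05).

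Between stages, none of the 3 heavy chain genes passed the test on counts summed over the 5 sections of a replicate. The mean sums of slc3a2b LOC110533969 were 285, 404, 396 and 369 CPM at 0 hpf, 1 hpf, 1 dpf and 3 dpf. Those of slc3a2b LOC110509955 were 287, 313, 262 and 320.2 CPM, and those of slc3a2a 32.5, 36.2, 30.0 and 28.5 CPM. The log2 change of slc3a2b LOC110533969 from 0 hpf, 0.37 at 3 dpf and 0.48 at 1 dpf, passed with a replicate term, with each section weighted equally (0.37 and 0.46) and without replicate 2 of 0 hpf (0.57 and 0.67). That of slc3a2b LOC110509955 passed without replicate 3 of 3 dpf, at 0.52 against 1 dpf and 0.38 against 0 hpf.

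The light chain gene slc7a6, whose protein exchanges cationic for neutral amino acids, had the steepest vegetal excess of the members at 0 hpf. Its 0 hpf level was 11.6, 19.1 and 11.3 CPM in A and 199, 205 and 139.6 CPM in E, a log2 difference of -3.7 (SE 0.22, adjusted p = 7.48e-10). The level climbed through the sections between, with means of 23.9 CPM in B, 52.5 CPM in C and 101 CPM in D. At 3 dpf it was 17.5, 16.4 and 12.2 CPM in A and 148, 137 and 208 CPM in E (-3.4, SE 0.25, adjusted p = 7.97e-09). The values at 1 hpf (-3.48) and 1 dpf (-3.66) were close to these, and no A value came near an E value at any stage. Section B held a mean of 52.7 CPM at 3 dpf, against 15.4 CPM in A (B minus A 1.81, adjusted p = 1.79e-05). The summed level of slc7a6 averaged 63.9, 75.1, 81.9 and 89.2 CPM over the 4 stages, and no stage comparison passed. In the summed counts replicate 2 of 0 hpf was high, at 97.1 CPM beside 49.9 and 44.7 CPM. Without it slc7a6 was called at 1 hpf (0.67), 1 dpf (0.79) and 3 dpf (0.92) against 0 hpf. These sums weight sections by depth. Replicate 2 of 0 hpf had 4.09 M counts in A and 4.64 M in E, against 8.44 and 3.66 M in replicate 1 and 14.46 and 5.49 M in replicate 3. Its E level of 205 CPM was close to the 199 CPM of replicate 1. The part of section depth in these calls was not tested. With equal section weights the 3 dpf change passed too (0.66).

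The light chain gene slc7a5, which takes up large neutral amino acids such as leucine, leaned to E less steeply. At 0 hpf it averaged 26.7 ± 5.99 CPM in A and 40.9 ± 4.37 CPM in E (SD, n = 3 each), without overlap (log2 -0.6, SE 0.13, adjusted p = 0.00085). The difference was called at 1 hpf (-0.5) and 1 dpf (-0.49), but with library-size scaling it did not pass at either stage (-0.29 and -0.19), and without replicate 3 the 1 hpf call was lost (-0.35). At 3 dpf it had 71.7, 57.8 and 69.6 CPM in A and 59.9, 67.2 and 70.1 CPM in E, which overlapped (0.02, SE 0.19, adjusted p = 0.941). Its summed level was 64.8, 58.8 and 53.0 CPM at 1 dpf and 39.1, 29.4 and 32.3 CPM at 0 hpf (log2 0.81, SE 0.17, adjusted p = 0.0207). That call was lost without replicate 3 of 0 hpf, replicate 1 of 1 dpf or replicate 2 of 1 dpf (0.73 to 0.81), and at 3 dpf against 0 hpf it was 0.8 (adjusted p = 0.00508).

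The gene with the symbol slc7a7, a light chain for cationic and neutral amino acids, also leaned to E at each stage. It had 29.1, 21.5 and 24.6 CPM in A and 49.7, 43.6 and 43.8 CPM in E at 0 hpf (log2 -0.83, SE 0.12, adjusted p = 1.43e-05). At 3 dpf it had 18.7, 15.0 and 20.6 CPM in A and 47.2, 47.3 and 48.2 CPM in E (-1.38, SE 0.2, adjusted p = 1.36e-05). The 1 hpf call (-0.8) was lost without replicate 3 (-0.28), without the replicate term (-0.78) and under library-size scaling (-0.59). Its summed level rose early, to 49.9 and 53.6 CPM at 1 hpf, against 35.2, 35.0 and 32.1 CPM at 0 hpf (0.6, SE 0.12, adjusted p = 0.0247). The stages did not overlap, but the call was lost without replicate 1 or 3 of 0 hpf or either 1 hpf replicate (0.52 to 0.66). Its second copy and slc7a8a behaved differently and are described with the 3 dpf results.

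Of the genes for lysosomal or intracellular carriers, slc38a9 had the steepest gradient. In mammals SLC38A9 senses lysosomal arginine for mTORC1. At 0 hpf slc38a9 had 55.7, 66.4 and 37.6 CPM in A and 371, 305 and 401 CPM in E (log2 -2.79, SE 0.22, adjusted p = 1.21e-08). At 1 dpf it had 40.4, 42.6 and 40.2 CPM in A and 284, 307.5 and 374 CPM in E (-2.91, SE 0.14, adjusted p = 2.64e-11). At 3 dpf it had 78.8, 39.6 and 38.8 CPM in A and 293, 279 and 503 CPM in E (-2.72, SE 0.28, adjusted p = 2.62e-07), and at 1 hpf the difference was -3.42. Section B held 197, 198 and 194 CPM at 3 dpf and 49.1, 79.3 and 77.2 CPM at 1 dpf. At 3 dpf every B value lay above every A value (B minus A 1.92, SE 0.27, adjusted p = 2.88e-05).

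The lysosomal and endosomal carriers changed less along the axis. The proton-coupled carrier gene slc36a1 was at -0.43, -0.54, -0.6 and -1.4 (A minus E) over the 4 stages. Its 1 hpf call was lost with library-size scaling (-0.33) and without the replicate term (-0.55), and its A level of 49.9, 40.0 and 51.6 CPM at 3 dpf lay below the E level of 127, 125 and 125 CPM. Its relative slc36a4 was called lower in A from 1 hpf on (-0.55, -0.73 and -0.85), although at 1 hpf the call did not survive leaving out either replicate (-0.62 and -0.60), library-size scaling (-0.35), DESeq2 (-0.59) or dropping the replicate term (-0.56). The 1 dpf call was lost with library-size scaling (-0.43) and without replicate 2 (-0.56). The summed level of slc36a4 was 15.4 and 11.4 CPM at 1 hpf and 6.79, 5.66 and 6.15 CPM at 0 hpf (log2 1.11, SE 0.21, adjusted p = 0.0232), a call lost without replicate 1 or 3 of 0 hpf or replicate 1 of 1 hpf (0.88 to 1.17). It was 14.2, 16.6 and 13.3 CPM at 3 dpf, again without overlap (1.24 against 0 hpf, SE 0.19, adjusted p = 0.00126).

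Copies of slc38a7, which exports glutamine from the lysosome in mammals, were lower in A until 1 dpf and were not called at 3 dpf. slc38a7 LOC110526454 had 191, 169 and 202 CPM in A and 303, 282 and 345 CPM in E at 1 dpf (-0.68, SE 0.09, adjusted p = 3.09e-06). At 3 dpf it had 274, 256 and 255 CPM in A, against 297.5, 298 and 321 CPM in E. slc38a7 LOC110506580 was at -0.64, -0.85 and -0.75 over the first 3 stages, and its 1 hpf and 1 dpf calls were lost without the replicate term (-0.86 and -0.73). Its level differed widely between replicates at the later stages: the 1 dpf sums were 70.2, 74.7 and 147 CPM and the 3 dpf sums 85.2, 101 and 155 CPM, with replicate 3 the highest both times.

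The glutamine carrier gene slc38a8a kept a vegetal excess too. It had 28.8, 25.4 and 21.9 CPM in A and 74.3, 47.9 and 92.1 CPM in E at 0 hpf (log2 -1.47, SE 0.17, adjusted p = 1.08e-06). At 1 dpf it had 18.9, 22.1 and 22.3 CPM in A and 62.4, 72.8 and 75.3 CPM in E (-1.69, SE 0.14, adjusted p = 1.77e-08). The values at 1 hpf (-1.85) and 3 dpf (-1.08) were on the same side. The facilitated carrier gene slc43a1a was lower in A at 0 hpf (-1.14), 1 hpf (-1.46) and 1 dpf (-1.25). The 0 hpf and 1 hpf calls were lost without the replicate term (-1.18 and -1.37), and the 1 hpf call without replicate 3 (-0.66). slc38a10, whose product is a less studied member of its family, was called lower in A at 0 hpf (-0.56) and 1 dpf (-0.39), and neither call held with library-size scaling (-0.37 and -0.09).

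**Figure D3:**
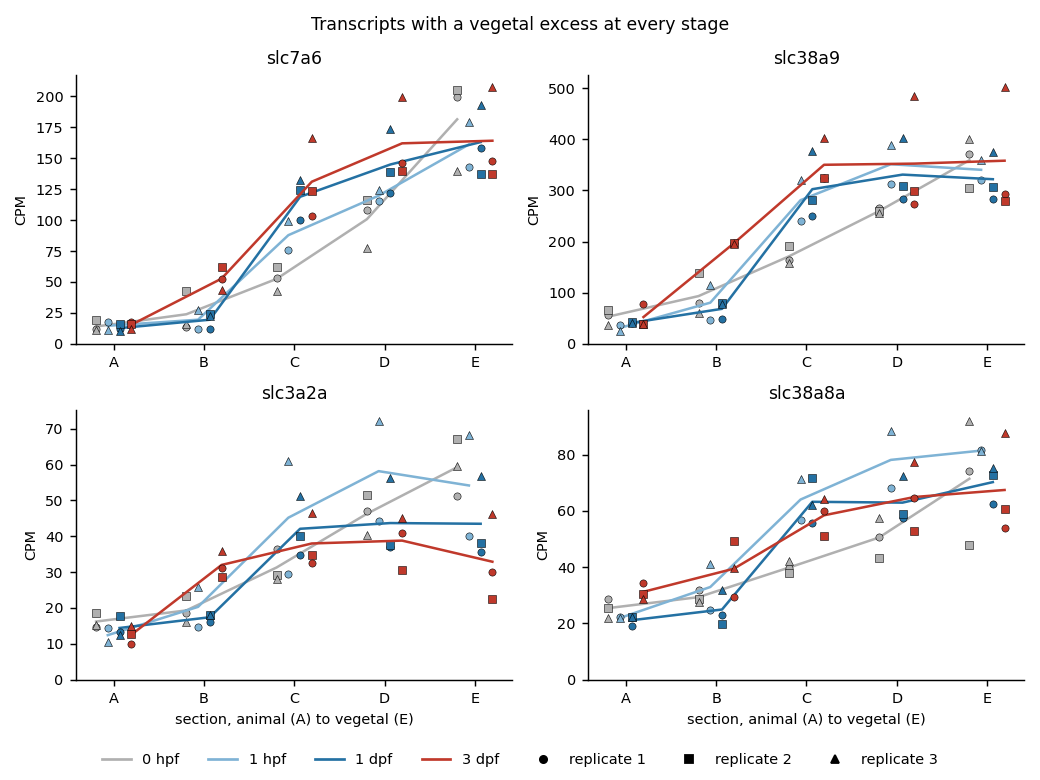
Level in CPM (vertical axes) of slc7a6, slc38a9, slc3a2a and slc38a8a in sections A to E, with lines through the means and symbols for the replicates, coloured by stage. In each of these genes the A values lie below the E values at all 4 stages, and in slc7a6 and slc38a9 section B is above section A at 3 dpf.

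Few members were higher in the animal section of the egg. The orphan carrier gene slc6a16b had 116, 95.6 and 96.7 CPM in A and 74.0, 65.9 and 69.1 CPM in E at 0 hpf (log2 0.58, SE 0.11, adjusted p = 0.000232), and it was called at 1 hpf (0.59) and 1 dpf (0.47). The 1 hpf call was lost without replicate 3 (0.48), and the 1 dpf call without replicate 1 (0.49) or the replicate term (0.48). The cationic amino acid carrier gene slc7a3a LOC110534152 had 200.5, 102 and 209.6 CPM in A and 128, 82.0 and 119.9 CPM in E (0.62, SE 0.13, adjusted p = 0.000451). Replicate 2 was low in both sections, so the groups overlapped although A was higher within each replicate, and the call was lost without the replicate term (0.66). The copy with the symbol slc7a3a, whose mean stage sums lay between 114.8 and 134.4 CPM, was called between the poles at none of the 4 stages; at 3 dpf its difference was 0.27 (adjusted p = 0.104).

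The glycine carrier gene slc6a9 had 18.8, 23.2 and 18.5 CPM in A and 14.4, 18.4 and 12.6 CPM in E at 0 hpf (0.45, SE 0.14, adjusted p = 0.00856), a call lost without replicate 3 (0.38) or the replicate term (0.43). At 3 dpf the order was the other way, with 5.83, 2.73 and 8.78 CPM in A and 9.26, 14.7 and 22.9 CPM in E (-1.36, SE 0.3, adjusted p = 0.000613). slc38a2 LOC110499958, a sodium-coupled neutral amino acid carrier gene, was the remaining carrier called higher at 0 hpf (0.89, at 5.22 CPM in A and 2.85 CPM in E). Its call was also lost without the replicate term (0.92) or replicate 3 (1.00). The non-carrier slc7a6os LOC110526238 had 45.5, 46.4 and 53.5 CPM in A and 23.2, 27.2 and 36.6 CPM in E (0.76, SE 0.13, adjusted p = 0.000104). It lies next to slc7a6 on chromosome 6 in the RefSeq annotation, with 0 genes between and no overlap, and its A excess stands beside the E excess of slc7a6. The copy with the symbol slc7a6os, with mean stage sums of 116, 148, 144 and 139 CPM, was called between the poles at none of the 4 stages, and slc38a6, another slc38 family gene, was called at 1 dpf alone (0.33, adjusted p = 0.014), not without replicate 1 (0.31) or replicate 2 (0.33). Whether the counting used strand is not given in the sources used here.

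Between stages, few members were called on the summed counts before 3 dpf. Against 0 hpf, 2 of 36 members were called at 1 hpf, both higher (3.48% of all genes were called, 2.21% higher and 1.27% lower), and 4 at 1 dpf, all higher (8.03% of all genes, 4.81% higher and 3.21% lower). The members at 1 dpf were slc36a4 (1.1), slc7a5 (0.81), slc7a7 (0.57) and slc1a5 LOC110507436 (0.55), and each was lost without replicate 3 of 0 hpf and without replicate 1 or 2 of 1 dpf. None was called lower in either comparison by edgeR or DESeq2, and 8 and 10 members had an unadjusted p under 0.05. In an alternative fit with a replicate term 6 members were called at 1 hpf and 7 at 1 dpf, all higher, beside 1822 and 3295 of all genes. At 3 dpf, 7 members were called higher and 0 lower against 1 dpf (11.2% of all genes, 8.06% higher and 3.15% lower), and 11 had an unadjusted p under 0.05. DESeq2 called 9 members higher and 1 lower, and of all 23460 genes 2742 higher and 1239 lower. The member counts at an unadjusted p were not set against all genes. Against 0 hpf 16 were higher and 2 lower at 3 dpf (36.1% of all genes, 19.9% higher and 16.2% lower). The 2 that fell were the proline carrier gene slc6a7 (-0.5, adjusted p = 0.00883), with 26.8, 28.1 and 32.3 CPM at 3 dpf and 39.6, 41.5 and 42.2 CPM at 0 hpf, and slc7a6os LOC110526238 (-0.75, adjusted p = 0.00392). Among the 16 called higher were the lysosomal carrier genes slc38a9 (0.52, adjusted p = 0.0318) and slc38a7 LOC110526454 (0.32, adjusted p = 0.0135). Both calls were lost with library-size scaling (0.44 and 0.25) or without replicate 3 of 0 hpf (0.44 and 0.30). That of slc38a9 was also lost without replicate 1 of 0 hpf (0.44) or replicate 2 or 3 of 3 dpf (0.53 and 0.43). The other 14 were slc1a5 LOC110507436, slc36a4, slc7a5, slc7a8a, both slc7a7 copies, both slc38a2 and both slc38a4 copies, slc43a1a (1.25), slc43a1b and both slc43a2b copies. Of these, slc7a7 (0.34) was lost with library-size scaling (0.26) and without replicate 1 or 3 of 0 hpf or replicate 2 or 3 of 3 dpf (0.28 to 0.36). slc43a1a was lost without replicate 3 of 0 hpf (1.00) or of 3 dpf (0.98), slc38a2 LOC110490511 with equal section weights (1.29), and the fall of slc6a7 with equal section weights (-0.35).

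Several members with low levels at 1 dpf rose steeply by 3 dpf. The second slc7a7 copy, LOC110531642, had summed levels of 416, 283 and 72.9 CPM at 3 dpf and 2.5, 2.04 and 0.56 CPM at 1 dpf (log2 7.25, SE 0.75, adjusted p = 0.000583). The light chain gene slc7a8a, a carrier of neutral amino acids, had 262, 199.7 and 34.9 CPM at 3 dpf and 0.437, 0.511 and 0.0 CPM at 1 dpf (9.07, SE 0.97, adjusted p = 0.000621). slc43a2b LOC110507524, a facilitated carrier of large neutral amino acids, had 380.5, 241 and 72.9 CPM at 3 dpf and 10.8, 12.1 and 7.77 CPM at 1 dpf (4.51, SE 0.51, adjusted p = 0.00084). In all 3 genes replicate 3 was the lowest at 3 dpf and still above every 1 dpf replicate.

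These transcripts lay in sections A and B at 3 dpf. slc7a7 LOC110531642 had 429, 306 and 129 CPM in A and 966, 1062 and 151 CPM in B, against 1.32, 1.05 and 3.05 CPM in E (A minus E 7.66, SE 0.96, adjusted p = 2.5e-06). slc7a8a had 232, 151 and 84.8 CPM in A and 641, 784 and 57.5 CPM in B, against 3.09, 1.84 and 0.0 CPM in E (6.94, SE 0.87, adjusted p = 2.43e-06). slc43a2b LOC110507524 had 406, 217 and 126 CPM in A and 858, 907 and 145 CPM in B, against 11.9, 9.71 and 7.11 CPM in E (4.71, SE 0.43, adjusted p = 8.12e-08). Replicates 1 and 2 were higher in B than in A for all 3 genes, while in replicate 3 B and A differed less and slc7a8a was lower in B. Replicate 1 also had more in C and D than the others, for example 23.6 CPM of slc7a7 LOC110531642 in C beside 0.0 and 0.206 CPM.

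The other slc43a2b copy, LOC110503649, had 16.7, 10.5 and 6.42 CPM in A and 61.8, 64.5 and 0.561 CPM in B at 3 dpf, so replicate 3 again had little in B. Its E sections held 1 count at 3 dpf and its 0 hpf libraries 2 counts in all, so no fold is given. Its 3 dpf sums of 23.7, 16.3 and 1.47 CPM lay above the 1 dpf sums of 0.517, 0.426 and 0.035 CPM (5.4, SE 1.12, adjusted p = 0.0131), a call lost without replicate 1 of 3 dpf (4.76) or replicate 2 of 1 dpf (5.65).

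A contrast of B with A at 3 dpf, added after the section levels were seen, called 20 of 36 members, 10 higher and 10 lower in B (57.2% of all genes, 28.6% higher and 28.7% lower). With library-size scaling the split was 14 higher and 7 lower, in a comparison where that scaling moved all genes by a median of 0.23. All genes then split 7994 higher and 4867 lower in B. The differences of slc7a7 LOC110531642 (1.14, SE 0.57, adjusted p = 0.0974) and slc7a8a (1.15, SE 0.55, adjusted p = 0.0813) did not pass. That of slc43a2b LOC110507524 did (1.23, SE 0.33, adjusted p = 0.0053), but it was lost without replicate 2 (0.75) and without the replicate term (1.35). The heavy chain genes were higher in B than in A, slc3a2b LOC110509955 by 1.67 (SE 0.36, adjusted p = 0.00108), slc3a2b LOC110533969 by 1.41 (SE 0.15, adjusted p = 2.91e-06) and slc3a2a by 1.4 (SE 0.2, adjusted p = 2.75e-05). Only slc3a2b LOC110509955 had its highest section mean in B (524.2 CPM). That of slc3a2b LOC110533969 was in E (566.2 CPM) and that of slc3a2a in D (38.8 CPM).

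Markers of the yolk syncytial layer were high in the same libraries. Summed over the 5 genes found (mxtx2, mxtx1, 2 gata6 copies and hnf4a), they stood at 527, 329 and 212 CPM in A, 1143, 1315 and 331 CPM in B and 115 to 141 CPM over the sections C to E of 3 dpf. Replicate 3 was the lowest in A and in B, as for the carriers. mxtx2 made up most of the sum in E (120.4 CPM on average), and hnf4a was without counts there. Of the 5 genes 4 were called higher and 1 lower in A than in E at 3 dpf (38.1% and 34.3% of all genes). Their part in the carrier results was not tested. In such tissue sections, fewer cells of a type and less RNA per cell cannot be told apart.

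Genes of the slc38 family rose at 3 dpf in a different pattern, high in A and low in B. slc38a2 and slc38a4 encode sodium-coupled carriers of small neutral amino acids, and mammalian SLC38A2 is induced when amino acids run short. slc38a2 LOC110490511 had 91.2, 101 and 113 CPM in A and 0.881, 3.94 and 1.02 CPM in E (log2 5.42, SE 0.64, adjusted p = 1.21e-06), with 11.7, 3.56 and 38.7 CPM in B. slc38a2 LOC110499958 had 66.9, 77.8 and 82.2 CPM in A and 8.37, 10.5 and 0.508 CPM in E (3.39, SE 0.52, adjusted p = 1.98e-05). Every A value was several times any E value of the same gene. In B the highest value of both copies was that of replicate 3.

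The slc38a4 copies followed the same section pattern. slc38a4 LOC110490512 had 77.0, 107 and 86.5 CPM in A and 0.0, 2.89 and 0.0 CPM in E (6.1, SE 0.65, adjusted p = 4.02e-07). slc38a4 LOC110499957 had 97.0, 87.8 and 82.0 CPM in A and 0.881, 3.94 and 1.02 CPM in E (5.24, SE 0.67, adjusted p = 2.86e-06). In the RefSeq annotation slc38a2 LOC110490511 and slc38a4 LOC110490512 are neighbours on chromosome 15, and slc38a4 LOC110499957 and slc38a2 LOC110499958 on chromosome 21, with 0 genes between them and no overlap. The 4 genes thus form 2 neighbouring pairs, and all 4 had a like section pattern at 3 dpf. All were lower in B than in A, by -2.66 and -2.18 for slc38a2 LOC110490511 and LOC110499958 and by -2.97 and -2.7 for slc38a4 LOC110490512 and LOC110499957.

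The summed levels of these genes give the rise between stages. slc38a4 LOC110499957 had 30.3, 14.1 and 24.8 CPM at 3 dpf and 2.94, 2.17 and 1.86 CPM at 1 dpf (3.31, SE 0.32, adjusted p = 0.000509). slc38a4 LOC110490512 had 23.0, 15.6 and 25.3 CPM at 3 dpf and 0.278, 0.682 and 0.14 CPM at 1 dpf (5.87, SE 0.63, adjusted p = 0.000656). slc38a2 LOC110490511 had 28.5, 15.1 and 35.0 CPM at 3 dpf and 2.23, 1.53 and 0.21 CPM at 1 dpf (4.31, SE 0.84, adjusted p = 0.00976). With log2 levels averaged over equally weighted sections, the change was 2.03 and did not pass. That average also lowers the log2 change of a gene that rises in few sections, so it does not test the weighting alone. slc38a2 LOC110499958 was called only against 0 hpf (2.34, adjusted p = 0.0414), where leaving out any replicate of either stage ended the call (1.93 to 2.61). Before 3 dpf the slc38a2 levels differed widely between replicates, with 1 dpf sums of 12.5, 6.73 and 1.89 CPM for LOC110499958. The calls of both copies in A at 1 dpf (1.65 and 0.78) were each lost without the replicate term, with DESeq2 (1.77 and 0.80) and without replicate 1 or 2. That of LOC110490511 was also lost without replicate 3 (1.53).

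Markers of the enveloping layer, the outer epithelium of the fish blastula, had a high sum in A at 3 dpf. Of the 10 genes found, 8 were called higher and 2 lower in A than in E (38.1% and 34.3% of all genes), and the 2 lower were the klf6a copies, with 20.3 and 9.46 CPM in A and 79.7 and 56.9 CPM in E on average. Summed over the 10 genes they stood at 1187, 1062 and 1212 CPM in A, 364, 320 and 518 CPM in B and 369 to 415 CPM in E. As for slc38a2 and slc38a4, replicate 3 had the highest sum of the B sections. The largest parts of the sum in B were cdh1 (180.6 ± 32.5 CPM), klf6a (69.0 ± 13.2 CPM) and krt5 e1 (56.9 ± 70.7 CPM, SD, n = 3). The grhl3 copies varied little there (10.1 ± 0.878 and 16.4 ± 1.32 CPM), so the likeness is one of the sum and not of each marker. Their part in these results was not tested.

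**Figure D4:**
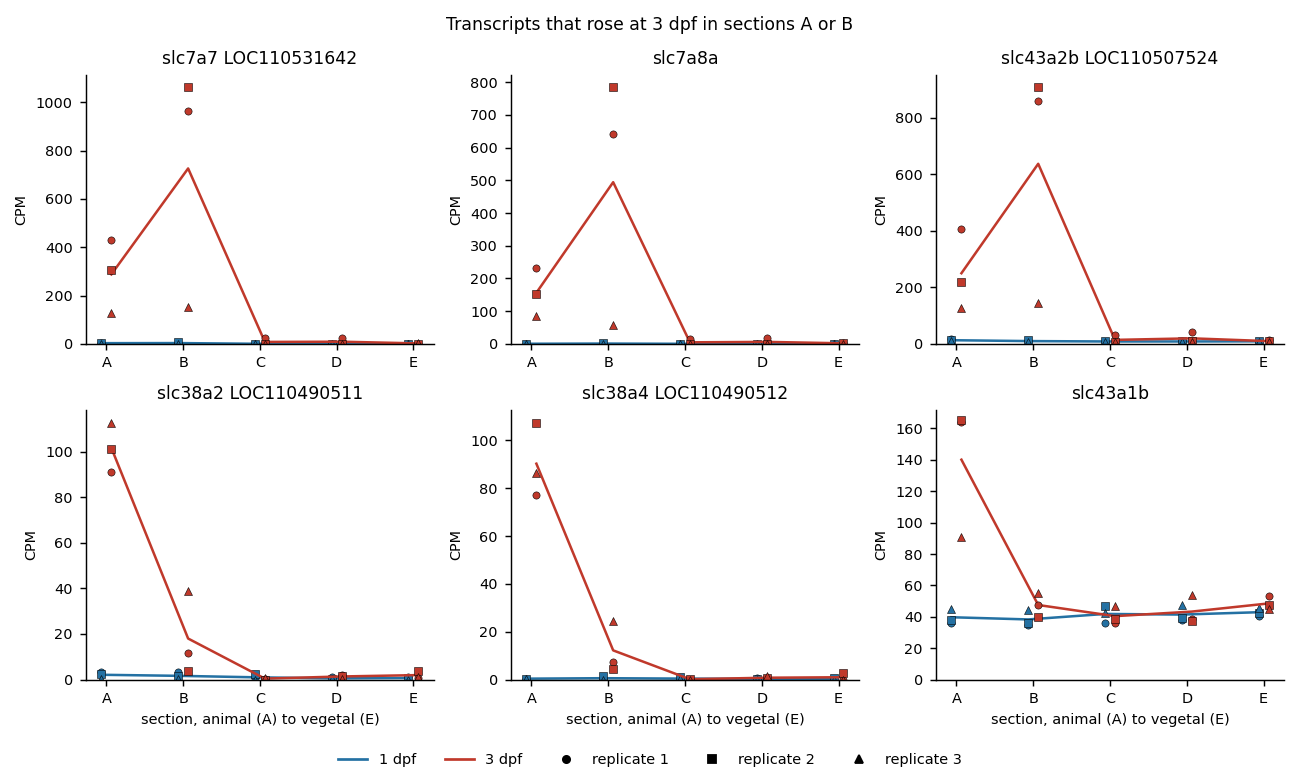
Level in CPM (vertical axes) in sections A to E at 1 dpf and 3 dpf of 6 genes that were higher in A at 3 dpf, with lines through the means and symbols for the replicates. The top row (slc7a7 LOC110531642, slc7a8a, slc43a2b LOC110507524) has far higher values in B than in A in replicates 1 and 2, while in replicate 3 A and B lie closer together, and the bottom row (slc38a2 LOC110490511, slc38a4 LOC110490512, slc43a1b) has its highest values in A.

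A further group had moderate levels at 0 hpf and an excess in A at 3 dpf. slc43a1b, a facilitated carrier of large neutral amino acids, had 164, 165 and 91.0 CPM in A and 53.3, 47.5 and 44.7 CPM in E at 3 dpf (log2 1.53, SE 0.24, adjusted p = 3.2e-05), while at 1 dpf it averaged 39.7 ± 4.75 CPM in A and 42.9 ± 2.55 CPM in E, which overlapped (SD, n = 3 each). slc7a3a LOC110534152 had 238, 272 and 289 CPM in A and 109, 120.3 and 73.1 CPM in E at 3 dpf (1.4, SE 0.21, adjusted p = 1.62e-05). Neither gene overlapped between A and E at 3 dpf. The sum of slc43a1b was 76.3, 55.4 and 56.6 CPM at 3 dpf and 28.2, 41.6 and 25.2 CPM at 0 hpf (0.99, SE 0.2, adjusted p = 0.00425).

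Copies of the same gene went opposite ways in slc1a5 and slc7a7. slc1a5 belongs to the sodium-dependent exchangers of neutral amino acids, and its mammalian counterpart carries glutamine. slc1a5 LOC110507436 had 319.9, 317 and 292.5 CPM in A and 146, 173 and 109 CPM in E at 3 dpf (1.14, SE 0.17, adjusted p = 1.87e-05). slc1a5 LOC110503495 had 63.6, 56.4 and 68.3 CPM in A and 207, 199 and 102 CPM in E (-1.37, SE 0.21, adjusted p = 2.59e-05).

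At 0 hpf the slc1a5 copies were alike in direction. slc1a5 LOC110507436 had 71.5, 74.0 and 83.2 CPM in A and 102, 124 and 122 CPM in E (-0.58, SE 0.1, adjusted p = 9.43e-05), and slc1a5 LOC110503495 had 77.4, 105 and 65.3 CPM in A and 127, 166 and 110.3 CPM in E (-0.69, SE 0.1, adjusted p = 1.81e-05). LOC110507436 was lower in A at 1 dpf too (-0.37), a call lost with library-size scaling (-0.08), and its summed level was 186, 180.4 and 157.5 CPM at 3 dpf and 78.0, 104 and 97.8 CPM at 0 hpf (0.91, SE 0.14, adjusted p = 0.00107). LOC110503495 was lower in A at 1 dpf by -1.15 and had no called change between stages. Reads that fit more than 1 copy may have been split or dropped in the counting, which bears on each copy's level.

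**Figure D5:**
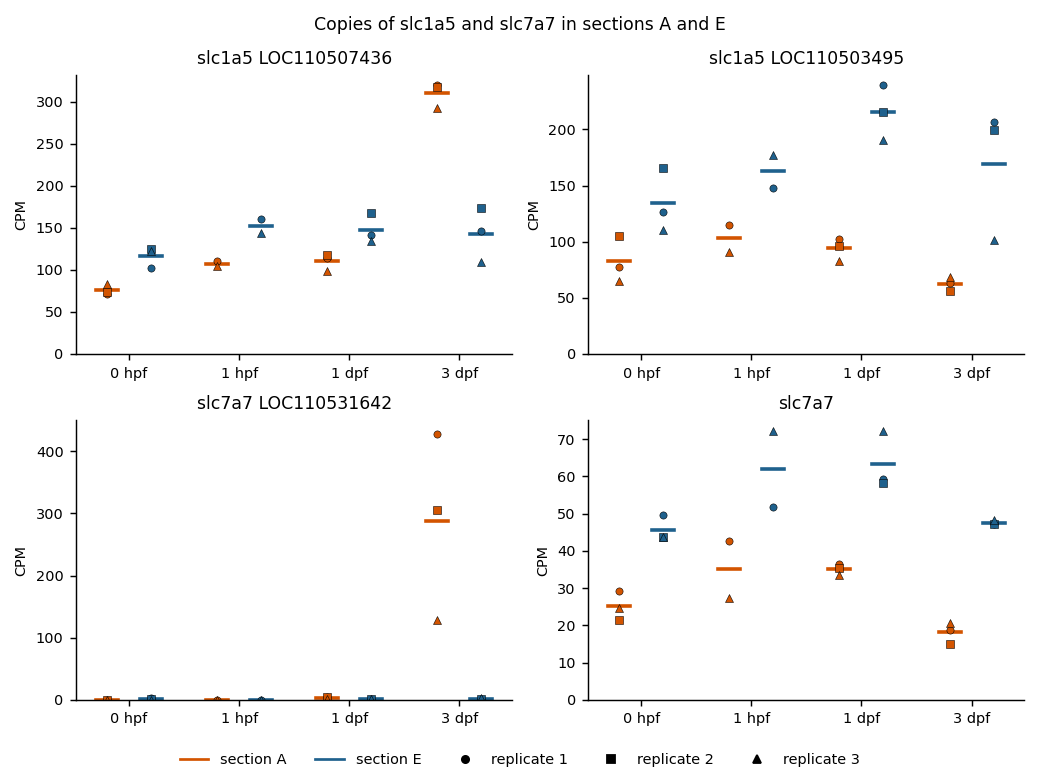
Level in CPM (vertical axes) in section A (left of each pair) and section E at the 4 stages, with a bar at the mean and symbols for the replicates, for copies of slc1a5 (top) and slc7a7 (bottom). At 3 dpf the A values of slc1a5 LOC110507436 and slc7a7 LOC110531642 lie above the E values, and those of the other copies below them.

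The change in the A minus E difference between stages was tested over all libraries with a term for each embryo sample. From 0 hpf to 1 dpf, 0 of 36 members were called by edgeR (1.53% of all genes) and 0 by DESeq2, with 2 and 3 at an unadjusted p under 0.05, counts not set against all genes. From 1 dpf to 3 dpf 17 members were called, 13 shifted toward A and 4 toward E (43.9% of all genes, 22.8% toward A and 21.2% toward E). With library-size scaling, which moved all genes by a median of -0.4 in this comparison, the split was 8 toward A and 7 toward E. All genes then split 3406 toward A and 7617 toward E. The smallest adjusted p was that of slc1a5 LOC110507436, which shifted toward A by 1.56 (SE 0.16, adjusted p = 6.28e-10). slc43a2b LOC110507524 shifted by 4.19 (SE 0.47, adjusted p = 4.11e-09), slc43a1b by 1.63 (SE 0.24, adjusted p = 7.35e-07) and slc6a9 toward E by -1.4 (SE 0.26, adjusted p = 2.79e-05). The heavy chain gene slc3a2b LOC110533969 shifted toward E by -0.8 (SE 0.16, adjusted p = 0.000118). A shift of this kind compares shares of counts and does not show that RNA moved.

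The low-level members gave few calls. slc6a13, a carrier of GABA and taurine, had 0 hpf sums of 0.769, 5.03 and 0.452 CPM, and slc6a14, a broad carrier of neutral and cationic amino acids, had 1 hpf sums of 6.6 and 0.117 CPM. Both varied widely between replicates. slc6a14 was called lower in A at 3 dpf, with 1.52, 0.0 and 0.0 CPM in A and 4.85, 4.46 and 2.03 CPM in E (-2.77, SE 0.97, adjusted p = 0.0172), a call lost without replicate 2 (-2.39) or the replicate term (-2.74). The neutral amino acid exchanger gene slc1a4 stayed between 1.96 and 5.25 CPM in all stage sums and was not called.

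Genes that work with these carriers showed their own directions along the axis. Of 40 genes of mTORC1 and Rag GTPase amino acid sensing, a list that includes slc38a9, 23 were higher and 5 lower in A than in E at 0 hpf, and 21 were higher and 11 lower of 39 at 3 dpf. Over all genes the shares were 32.0% higher and 32.0% lower at 0 hpf and 38.1% higher and 34.3% lower at 3 dpf. The median log2 difference of the list was 0.61 at 0 hpf and 0.77 at 3 dpf, beside -0.01 and 0.07 over all tested genes. The kinase gene mtor led the A side at 0 hpf, with 62.0 ± 3.11 CPM in A and 4.64 ± 0.704 CPM in E (SD, n = 3, log2 3.78, adjusted p = 6.88e-10). The sestrin gene sesn4 LOC110504991 was lower in A at every stage, with 75.5 ± 7.15 CPM in A and 239 ± 24.9 CPM in E at 0 hpf (-1.64, adjusted p = 7.48e-10) and -3.09 at 3 dpf. Sestrins report leucine to mTORC1 in mammals.

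Of 24 lysosomal and yolk protease genes, 23 were tested at 0 hpf, where 1 was higher and 13 lower in A (median -0.96, beside -0.01 over all genes and shares of 32.0% higher and 32.0% lower). The peptidase gene tpp1 had 80.4 ± 26.3 CPM in A and 339.5 ± 58.6 CPM in E (SD, n = 3, -2.1, adjusted p = 5.33e-09). At 3 dpf 7 of 24 were higher and 11 lower (median -0.28, beside 0.07 over all genes and shares of 38.1% and 34.3%), led by cathepsin L copies on the A side: ctsla LOC110523893 had 394.5 ± 149 CPM in A and 15.5 ± 6.97 CPM in E (4.64, adjusted p = 7.97e-09).

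Of 17 genes on a list drawn up for other amino acid and peptide carriers, 15 were tested at 0 hpf, where 2 were higher and 7 lower in A (32.0% and 32.0% of all genes). At 3 dpf 16 were tested, and 4 were higher and 10 lower (38.1% and 34.3% of all genes). The list also holds carriers of other compounds (slc44a1a, slc44a1b, slc33a1, slc16a1a and slc16a3). Its counts and medians are therefore not those of amino acid and peptide carriers alone. The list's medians were -0.38 and -1.12, beside -0.01 and 0.07 over all genes. The lysosomal cationic amino acid exporter gene slc66a1 had 92.3 ± 6.42 CPM in A and 390.4 ± 24.8 CPM in E at 0 hpf (SD, n = 3, -2.06, adjusted p = 2.03e-09) and was at -2.95 at 3 dpf. Of 40 genes of the amino acid deprivation response, 18 rose and 5 fell between 0 hpf and 3 dpf in the summed counts (19.9% and 16.2% of all genes), with a median of 0.55 beside 0.01 over all genes. The transcription factor gene atf4a LOC110494903, which drives this response, had 51.0 ± 10.1 CPM at 3 dpf and 15.0 ± 3.62 CPM at 0 hpf (SD, n = 3, 1.77, adjusted p = 0.000701), and atf4b LOC110538017 rose by 2.98 (adjusted p = 0.000491). At 3 dpf 21 of the 40 stood higher in A than in E and 16 stood lower (38.1% and 34.3% of all genes). The list's median was 0.99, beside 0.07 over all genes. The genes with the smallest adjusted p were on the lower side, the alanine aminotransferase gene gpt2 at -2.73 and the mTORC1 inhibitor gene ddit4 LOC110500632 at -4.21.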

How the data were processed

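The authors deposited raw counts of reads for each gene. According to the submitters' processing notes they used fastp 0.23.4, STAR 2.7.11 and HTSeq 2.0.4, and DESeq2 is named without a version. Genome build and strand setting: not given in the sources used here. The table held 55 of 60 labelled libraries, and 5 of 1 hpf were not analysed here. RefSeq (assembly USDA_OmykA_1.1) gave gene names and neighbours for 23470 of 23471 features, and a zebrafish symbol shared by 9 or more trout genes was ignored. No sequences were used.

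The tests used edgeR 4.0.16 under R 4.3.3 (quasi-likelihood F-tests, TMM, filterByExpr with a minimum count of 10, Benjamini-Hochberg adjustment over all genes at 0.05), with replicate as a term within a stage. For stage comparisons the counts of the 5 sections were added up, which weights sections by depth, without a replicate term. DESeq2 1.42.0, limma 3.58.1 with sections weighted equally, other scalings and filters, and leaving out each replicate were the alternatives. The equal weighting averaged log2 CPM over the 5 sections of a replicate, so it changed the measure as well as the weights. The procedure was also run on simulated counts. These had no replicate effects and few genes that differed between sections, unlike the real data, so they do not test that setting.

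The replicate numbers pair sections of a stage by the labels. Between 1 dpf and 3 dpf, samples with the same number deviated together (correlations 0.53, 0.39 and 0.6), which meets the rule set for pairing, although 3 dpf sample 1 also correlated with 1 dpf sample 2 (0.47) and 3 dpf sample 2 with 1 dpf sample 1 (0.26). Sample 3 of either stage ran against samples 1 and 2 of the other (-0.36 to -0.56). Samples 1 and 3 of 1 hpf went with the same number at 1 dpf (0.6 and 0.69) and 3 dpf (0.48 and 0.64), and sample 1 also with 1 dpf sample 2 (0.63). The reported stage tests have no replicate term, since no label says that a number marks a shared clutch, so they ignore this pairing. The fit with a replicate term is given as an alternative. For 0 hpf with later stages the correlations were -0.03 to 0.05. The labels name biological replicates but not separate clutches, so the p-values reflect only how these samples vary, which may be technical.

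The members and lists were chosen with earlier results of these data known. Genes given with full values were those with the largest called differences, most of the 8 with the highest mean level, the slc3a2 heavy chains and their partners, copies called in opposite directions and the smallest adjusted p of the shifts.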

Additional observations from a re-analysis of the deposited data

Results flagged for a closer look

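The difference between section A and section E changed between 1 dpf and 3 dpf in 17 of 36 genes, by a test of the change itself (edgeR, adjusted p under 0.05). Of all genes 43.9% were called, so the count is near the background. Each is given as the log2 change of A minus E. Toward A were slc7a7 LOC110531642 (6.07), slc38a4 LOC110499957 (4.4), slc43a2b LOC110507524 (4.19), slc38a2 LOC110490511 (3.83), slc38a2 LOC110499958 (2.63), slc43a1a (1.99), slc43a1b (1.63) and slc1a5 LOC110507436 (1.56). Smaller shifts toward A were those of slc7a3a LOC110534152 (0.73), slc38a8a (0.65), slc7a5 (0.55), slc38a7 LOC110526454 (0.51) and slc38a7 LOC110506580 (0.48). With library-size scaling these last 5 did not pass (0.33, 0.25, 0.15, 0.11 and 0.08). Toward E were slc6a9 (-1.4), slc3a2b LOC110533969 (-0.8), slc36a1 (-0.75) and slc7a6os LOC110526238 (-0.71). The changes of both slc38a2 copies were lost without replicate 1 of 1 dpf (3.68 and 2.02). Replicate 3 of 3 dpf stood apart in section B, with 151 CPM of slc7a7 LOC110531642 beside 966 and 1062 CPM.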

How the results depend on the processing

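Counts of members called kept within 1.5 times of the reported ones with library-size scaling, no filter and DESeq2, except 1 hpf against 0 hpf with DESeq2 (5 in place of 2). Without the replicate term, 10 members were called in A minus E at 1 hpf, and 13 and 8 over all sections at 0 hpf and 1 hpf. With a replicate block, 6 were called at 1 hpf and 7 at 1 dpf against 0 hpf; the block ended no member's call between stages. Leaving out each replicate in turn, A minus E gave 17 to 20, 8 to 14, 17 to 26 and 23 to 26 members over the 4 stages, all sections 13 to 18, 11 to 12, 17 to 24 and 20 to 22, and B minus A 15 to 24. The stage counts were 0 to 9 at 1 hpf and 0 to 9 at 1 dpf against 0 hpf, 6 to 8 at 3 dpf against 1 dpf and 14 to 23 at 3 dpf against 0 hpf. Over all genes the range at 3 dpf against 0 hpf was 5721 to 10118. The shifts gave 0 members from 0 hpf to 1 dpf and 12 to 17 from 1 dpf to 3 dpf, beside 57 to 512 and 8986 to 9618 of all genes. The 1 hpf runs with 1 sample took its spread from the other stages, chosen after seeing the data.

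Of 1494 member values under alternatives, 1297 kept direction and call, 162 lost and 22 gained a call and 13 turned sign, none of them called. These values cover members with a reported call. They also cover the uncalled heavy chains and their light chain partners in the A minus E and stage comparisons. Other uncalled members are not in these totals, and some gained calls. For example, slc7a6os LOC110526238 was called in 3 of 11 alternatives at 3 dpf against 1 dpf. slc7a5 in A minus E at 3 dpf was -0.04 with library-size scaling, -0.00 without the filter and -0.14 to 0.10 without single replicates (-0.14 without replicate 1). At 3 dpf against 1 dpf slc7a5 was 0.00 without the filter, 0.01 with DESeq2, 0.08 with equal section weights, 0.06 without replicate 1 of 1 dpf and 0.02 without replicate 3 of 3 dpf, in a range from -0.08 to 0.06 over single replicates. slc3a2a was -0.22 at 1 hpf against 0 hpf without replicate 3 of 1 hpf (up to 0.45 without others), and without replicate 2 of 0 hpf 0.08 at 1 dpf and 0.01 at 3 dpf (lowest values without a replicate -0.23 and -0.34). slc7a8a at 1 hpf was -0.28 without replicate 3 of 0 hpf and -0.51 without replicate 1 of 1 hpf (up to 0.71 without others).

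Counts over all genes moved further. Without the replicate term 7743 genes were localized at 0 hpf (12226 with it) and 4227 at 1 hpf (9985), 6165 differed between the poles at 1 hpf (11367), and 43 shifted from 0 hpf to 1 dpf (358). At 1 hpf against 0 hpf 816 genes were called, 1822 with a block, 2929 with DESeq2 and 1271 with equal weights. At 1 dpf against 0 hpf these were 1883, 3295, 4428 and 2931, and at 3 dpf against 1 dpf 2630, 3981 with DESeq2 and 1717 with equal weights. Without single replicates these stage counts ran from 157 to 3107, 378 to 4561 and 1226 to 2373, B minus A gave 8284 without replicate 2 (12809 with it), and the 0 hpf to 1 dpf shifts fell to 57 without replicate 3 of 0 hpf. The cause was not tested. With 2 or 3 replicates, depth and replicate number limit the low-level genes.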

Other observations

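Some members differed widely between replicates, and in some of them the differences recurred between stages. slc38a7 LOC110506580 had sums of 77.7 and 133 CPM in replicates 1 and 3 of 1 hpf, 70.2, 74.7 and 147 CPM at 1 dpf and 85.2, 101 and 155 CPM at 3 dpf, so replicate 3 was the highest at each of these stages. At 0 hpf its sums were 99.2, 109 and 98.7 CPM. slc6a14 went the other way, with 6.6 and 0.117 CPM in replicates 1 and 3 of 1 hpf, 4.13, 2.6 and 0.0 CPM at 1 dpf and 2.39, 2.33 and 0.476 CPM at 3 dpf. slc38a2 LOC110499958 had 12.3 and 2.37 CPM at 1 hpf and 12.5, 6.73 and 1.89 CPM at 1 dpf, but 25.1, 15.8 and 26.3 CPM at 3 dpf. At 0 hpf replicate 2 stood apart, with 5.03 CPM of slc6a13 beside 0.769 and 0.452 CPM and 86.5 CPM of slc7a3a LOC110534152 beside 172 and 170.2 CPM.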
